A study of Mus musculus with 6 samples.

Results

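Chromatin at the Zic family genes Zic1, Zic2, Zic4 and Zic5 was examined by ATAC-seq, in which a transposase cuts and tags accessible DNA, in neural stem and progenitor cells (NSPCs) derived from embryonic stem cells. A region belonged to a Zic gene when its strongest summit, the point of highest fold enrichment over the local background, had a TSS of that gene as the nearest protein-coding TSS, at most 50 kb away. By this rule 19 of 190365 regions were assigned to the 4 genes, 9 of 82885 in the parent list and 10 of 107480 in the ΔSRR2–18 list.

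The parent cells were Clone 5B of a 129S1/Cast F1 Hybrid, with an mCherry tag on the Sox2 copy of the 129S1 genome and no deletion. The ΔSRR2–18 cells were Clone 47D, which carried the same tag and had lost the downstream Sox2 enhancer cluster SRR2–18 on both alleles. Each genotype was 1 clone grown as 3 cultures with EGF and bFGF in N2B27 medium, and the deposited peak lists pool the 3 cultures. Differences between the genotypes therefore have no replicate error and were not tested, and an effect of the deletion and a difference between clones cannot be told apart. The question was how losing this control of Sox2, a gene that maintains neural progenitors, changed the chromatin of the progenitors.

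Zic genes encode zinc finger transcription factors that bind GC-rich sites related to those of the Gli proteins. They act in neural plate and neural crest formation, in the dorsal neural tube and in growth of the forebrain and cerebellum. In mammals they lie as divergent pairs of neighbours that share their surroundings, and their promoters sit in GC-rich DNA.

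In the GENCODE M21 annotation of mm10, Zic1 (ENSMUSG00000032368.14, chr9:91358058-91365810, minus strand) and Zic4 (ENSMUSG00000036972.14, chr9:91362413-91389348, plus strand) lie on opposite strands, and the outermost annotated start of Zic4 is inside Zic1. TSSs here are those of the basic set of transcripts, with 2 for Zic1, 3 for Zic4 and 1 each for Zic2 and Zic5, and by these the closest starts of Zic1 and Zic4 were 3160 bp apart. Zic5 (ENSMUSG00000041703.7, chr14:122456795-122465677, minus strand) and Zic2 (ENSMUSG00000061524.8, chr14:122475435-122479852, plus strand) had starts 9758 bp apart. Distances below run from the nearest TSS of the gene, positive in the direction of transcription.

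Sequences of 201 bases around the strongest summits, read from the plus strand of mm10, are shown for the regions that differed most between the genotypes and for the Zic1, Zic2 and Zic5 promoter regions. Capitals mark a match to a searched motif on either strand (CAGCAGG for ZIC, ACAAAG or ACAATG for SOX, CCAAT for the CCAAT box).
Zic2 −332 bp, a parent summit in the promoter, chr14:122475003-122475203: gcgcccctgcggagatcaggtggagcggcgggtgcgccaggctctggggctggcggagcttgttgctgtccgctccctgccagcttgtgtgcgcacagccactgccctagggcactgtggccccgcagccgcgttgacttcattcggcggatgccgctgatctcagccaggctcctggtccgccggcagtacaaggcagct
Zic2 −1196 bp, the strongest ΔSRR2–18 summit of the same region, chr14:122474139-122474339: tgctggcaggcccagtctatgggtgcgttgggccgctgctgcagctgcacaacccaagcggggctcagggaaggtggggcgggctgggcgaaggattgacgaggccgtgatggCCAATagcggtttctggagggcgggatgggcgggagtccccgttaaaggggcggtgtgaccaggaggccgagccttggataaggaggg
Zic5 +1496 bp, the strongest ΔSRR2–18 summit of the Zic5 promoter region, in the coding sequence, chr14:122464081-122464281: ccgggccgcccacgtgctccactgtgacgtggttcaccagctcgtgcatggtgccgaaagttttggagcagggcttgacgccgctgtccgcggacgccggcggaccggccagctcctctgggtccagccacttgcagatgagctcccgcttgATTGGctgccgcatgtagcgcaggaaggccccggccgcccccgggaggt
Zic1 −122 bp, promoter, chr9:91365832-91366032: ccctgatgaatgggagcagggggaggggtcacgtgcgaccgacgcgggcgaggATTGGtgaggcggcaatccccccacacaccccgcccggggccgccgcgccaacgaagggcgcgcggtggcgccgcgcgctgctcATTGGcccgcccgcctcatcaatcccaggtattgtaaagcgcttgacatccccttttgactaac
Zic1 +9972 bp, intergenic and past the 3′ end of the gene, chr9:91355696-91355896: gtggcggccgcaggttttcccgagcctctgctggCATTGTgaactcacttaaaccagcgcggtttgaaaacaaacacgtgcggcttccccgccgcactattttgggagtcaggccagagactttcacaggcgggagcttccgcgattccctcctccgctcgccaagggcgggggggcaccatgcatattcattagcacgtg
Zic4 +2972 bp, intron, chr9:91381514-91381714: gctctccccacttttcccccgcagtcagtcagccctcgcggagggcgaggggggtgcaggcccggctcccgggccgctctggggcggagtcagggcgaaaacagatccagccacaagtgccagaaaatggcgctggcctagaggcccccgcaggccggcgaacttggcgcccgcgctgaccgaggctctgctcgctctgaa
Zic4 +27557 bp, ΔSRR2–18 list alone, chr9:91406099-91406299: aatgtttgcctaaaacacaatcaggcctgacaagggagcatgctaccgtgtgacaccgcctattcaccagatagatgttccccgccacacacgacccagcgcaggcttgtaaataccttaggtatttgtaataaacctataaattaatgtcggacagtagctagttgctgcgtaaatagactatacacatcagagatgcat
Zic4 +35563 bp, parent list alone, chr9:91414105-91414305: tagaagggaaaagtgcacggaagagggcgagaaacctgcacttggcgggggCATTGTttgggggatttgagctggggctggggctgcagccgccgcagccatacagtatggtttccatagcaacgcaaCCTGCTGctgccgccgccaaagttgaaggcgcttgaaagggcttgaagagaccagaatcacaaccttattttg
The windows printed here from the Zic1, Zic2 and Zic5 promoter regions had no ZIC, GLI or SOX match. The Zic1 window held 2 CCAAT boxes, and the windows at Zic2 −1196 bp and Zic5 +1496 bp held 1 each. The parent Zic5 summit at +126 bp, nearer the TSS, is not printed. Among the summit windows of regions found in both lists, the only SOX match was in the intergenic Zic1 window. Over their whole length, the Zic2 promoter region and the intronic Zic4 region each held 1 SOX match, outside these windows. The intergenic Zic1 region and the parent-only Zic4 region at +35563 bp each held 2 over their whole length, 1 of them in the window. The parent-only Zic4 window held 1 SOX and 1 ZIC match.

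Heights are reads at a summit, recovered as whole numbers from the deposited fold enrichment and −log10 p. The parent list was the deeper by 1.98 times, as the ratio of the lowest background (38.8 reads in the parent and 19.7 in ΔSRR2–18), so parent reads were divided by this ratio wherever the genotypes are compared. Intervals on ratios are 95% exact binomial intervals of the reads and cover counting error only. Over all 40114 overlapping pairs of regions, the median log2 ratio of ΔSRR2–18 over parent was −0.24, and over the 12852 pairs at promoters it was −0.47, so the ratios below are to be read against these shifts. All 6 neural progenitor markers examined (Nes, Sox1, Sox2, Pax6, Fabp7, Vim) had a region within 1 kb of a TSS in both lists, and none of 3 pluripotency markers (Pou5f1, Nanog, Zfp42) had one in either. Of the other markers, 2 of 3 neuronal genes had one in the parent and 3 of 3 in ΔSRR2–18, and 2 of 3 mesoderm genes (Tbx6 and Meox1) had one in both. Regions of the progenitor markers were themselves mostly lower in height. They numbered 39 in the parent, 21 of them in the parent alone (53.8%, against 52.3% of all parent regions). In ΔSRR2–18 they numbered 24, 8 of them in ΔSRR2–18 alone (33.3%, against 63.1% of all ΔSRR2–18 regions). Sox2 had 9 of the parent regions, 6 of them in the parent alone. SRR2–18 lies just downstream of Sox2 and is missing from ΔSRR2–18, so a parent region inside it can have no partner. Over the 18 overlapping pairs of the markers the median log2 ratio was −0.82. Of these, 8 pairs were at least 2-fold lower, against 16.5% of all pairs, and 0 at least 2-fold higher, against 16.0%. The strongest Sox2 promoter summit had 2266 scaled reads in the parent and 711 in ΔSRR2–18, a log2 ratio of −1.67, and the pairs at the Sox1 and Fabp7 promoters were at −2.09 and −2.06. The other promoter pairs of the markers lay between −0.83 at Pax6 and 0.48 at Nes, with Vim at −0.038. The 2 parent Nes promoter regions, with 727 and 1777 scaled reads, were both paired with 1 ΔSRR2–18 region of 1014 reads. Their log2 ratios were 0.48 and −0.81, so the 0.48 does not show a rise at Nes. Both Sox2 promoter pairs likewise shared the ΔSRR2–18 height of 711 reads, so the marker pairs are not all independent. The part of these marker differences in the Zic results was not tested. In bulk ATAC-seq, fewer cells with an open site and less opening per cell cannot be told apart.

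Most Zic regions were found in both genotypes, and their heights differed more than their positions. The Zic2 and Zic5 promoter regions and an intergenic region downstream of Zic1 were about 3-fold lower in ΔSRR2–18, 2 further Zic1 regions were lower by less, and an intronic Zic4 region was almost 5-fold higher. Of the 9 parent regions, 7 overlapped a ΔSRR2–18 region (77.8%, 95% Wilson interval 45.3% to 93.7%), and 2 were found in the parent alone, against 52.3% of all parent regions. Of the 10 ΔSRR2–18 regions, 7 overlapped a parent region (70%, 39.7% to 89.2%), and 3 were found in ΔSRR2–18 alone, against 63.1% of all ΔSRR2–18 regions. Near promoters such absences were rarer, at 8.91% of the 13835 parent regions and 14.0% of the 14692 ΔSRR2–18 regions within 1 kb of a TSS, and none of the 6 Zic regions there lacked a partner. When the ΔSRR2–18 list was cut to the length of the parent list by fold enrichment, 4 of its Zic regions were left and 6 of the 9 parent regions had no partner, so these counts depend on the weakly enriched end of the list. The 5 regions without a partner were near Zic4 (4 regions) or Zic5 (1 region). Zic1 had 4 regions in each list, Zic2 had 1 in each, Zic4 had 3 in each, and Zic5 had 1 in the parent and 2 in ΔSRR2–18.

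The median Zic region was wider and richer in GC than the median of all regions, and its fold enrichment was lower. Median width was 924 bp in the parent, against 685 bp over all parent regions and 1035 bp over those within 1 kb of a TSS, and 849.5 bp in ΔSRR2–18, against 586 and 1023 bp. Widths ran from 372 to 2718 bp, the narrow regions having a single summit. Median GC content was 59.8% in the parent and 62.8% in ΔSRR2–18, against 49.5% and 46.6% over all regions and 60.9% and 60.4% over regions within 1 kb of a TSS. Median fold enrichment was 7.18 in the parent and 5.84 in ΔSRR2–18, below the medians of all regions at 9.81 and 10.4. In reads, the Zic5 and Zic2 promoter regions were within the tallest 7.62% and 8.46% of the parent list. Their 2020 and 1917 scaled reads compare with a median of 1523 over parent regions within 1 kb of a TSS. By fold enrichment they were within the top 54.0% and 62.1% of the list.

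Zic2 and Zic5 are neighbours on chromosome 14, and Zic2 is a gene whose loss disturbs forebrain midline formation. The Zic2 promoter region (chr14:122473941-122476658 in the parent, chr14:122473925-122476578 in ΔSRR2–18) spans the TSS, extends into the coding sequence and runs upstream over the divergent noncoding gene 2610035F20Rik. At its strongest summits it had 3788 parent reads, or 1917 after depth scaling, and 527 ΔSRR2–18 reads. The region was 3.64-fold lower in ΔSRR2–18 (log2 ratio −1.86, interval −2.00 to −1.73), or −1.62 from the median of all pairs, and 2.30% of promoter pairs had a lower ratio.

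The Zic5 promoter region (chr14:122463827-122465908 in the parent, chr14:122463821-122465773 in ΔSRR2–18) covers the 5′ UTR and much of the coding sequence behind it. Its strongest summits had 3991 parent reads, 2020 after scaling, and 705 ΔSRR2–18 reads. It was 2.87-fold lower in ΔSRR2–18 (log2 ratio −1.52, interval −1.64 to −1.40), and 4.51% of promoter pairs had a lower ratio. Every Zic2 and Zic5 summit of the parent had a ΔSRR2–18 summit within 100 bp, and all 9 of these matched summits were at least 2-fold lower. The median log2 ratio was −1.67 over the 5 Zic2 summits and −2.16 over the 4 Zic5 summits, against −0.34 over 58340 matched summits of all regions.

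**Figure D1:**
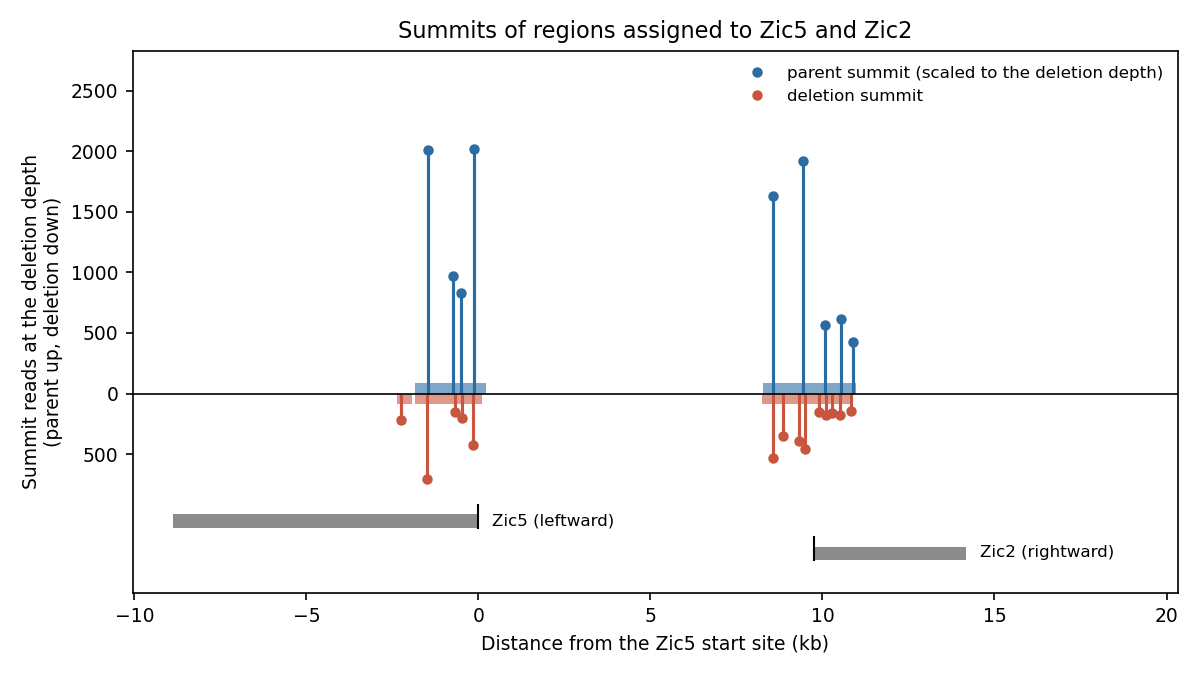
Summits of regions assigned to Zic5 and Zic2, plotted by distance in kb from the Zic5 start site, with parent reads scaled to the ΔSRR2–18 depth drawn upward and ΔSRR2–18 reads drawn downward. Coloured bars on the axis are the regions, grey bars the genes and black ticks the TSSs; the parent summits reach 2020 scaled reads and the ΔSRR2–18 summits 705.

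The summits within these promoter regions also stood in another order, which depth scaling cannot affect because both heights come from the same list. At Zic5, the summit 126 bp into the 5′ UTR and the summit at +1476 bp in the coding sequence had 3991 and 3963 reads in the parent, and 425 and 705 in ΔSRR2–18. The ratio of the TSS-proximal to the internal summit was therefore 1.01 in the parent and 0.60 in ΔSRR2–18, so that nearly equal summits became unequal, with a ratio of ratios of 0.599 (95% Wald interval on the log scale 0.527 to 0.680). At Zic2, the summits at −332 and −1201 bp had 3788 and 3226 reads in the parent and 453 and 527 in ΔSRR2–18, so that their ratio went from 1.17 to 0.86 (ratio of ratios 0.732, interval 0.640 to 0.837). In both promoter regions the tallest parent summit was the one nearer the TSS, and the tallest ΔSRR2–18 summit was the one farther from it. This is why the same 2 regions counted as lying within 1 kb of a TSS in the parent list and not in the ΔSRR2–18 list, although both still cover the TSS.

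The fold enrichments gave another picture of these promoters. Fold enrichment at the strongest Zic5 summit was 9.06 in the parent and 9.64 in ΔSRR2–18, and at Zic2 it was 7.74 and 6.22. The local background, which the peak caller takes from a wider window that includes the summit, was itself lower in ΔSRR2–18, from 222 scaled reads to 72.2 at Zic5 and from 247 to 83.9 at Zic2. These backgrounds were 3.08-fold and 2.95-fold lower, and 4.40% and 4.88% of all pairs had a lower background ratio. A summit and its window were thus lower by similar factors. Because the window includes the region itself, a lower region and lower surrounding DNA cannot be told apart.

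**Figure D2:**
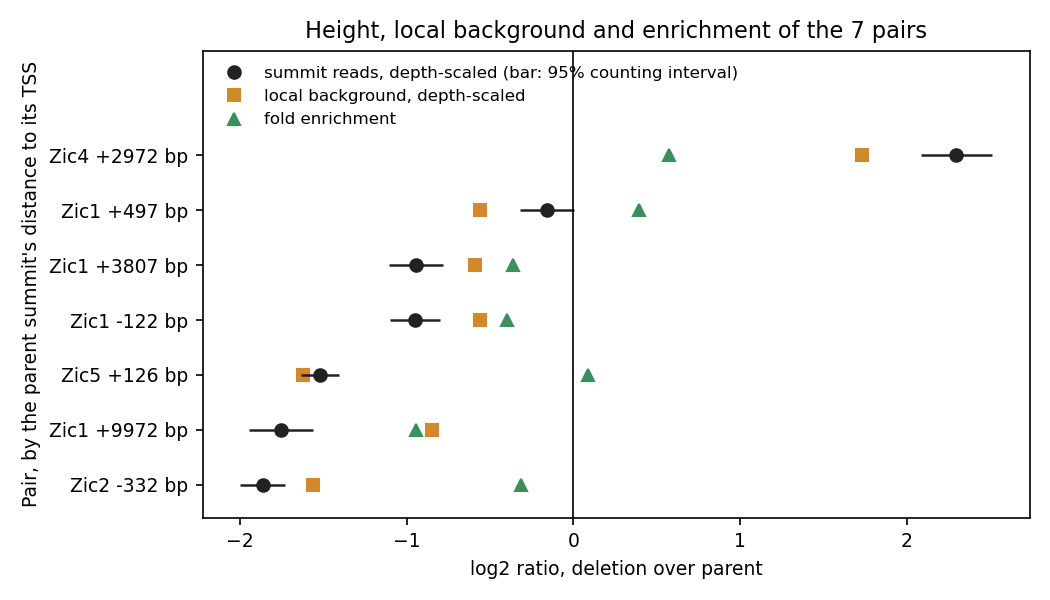
log2 ratio of ΔSRR2–18 over parent for the 7 overlapping pairs of Zic regions, on the horizontal axis, for depth-scaled summit reads with their 95% counting interval (circles), depth-scaled local background (squares) and fold enrichment (triangles). Each line is a pair named by the distance of its parent summit to the TSS; the Zic5 pair lies at −1.52 for reads, −1.62 for background and 0.089 for fold enrichment.

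Zic1, a factor of the dorsal neural tube and cerebellum, had its 4 regions in both genotypes. The region upstream of the TSS (chr9:91365697-91366104 in the parent) had 1743 parent reads, 882 after scaling, and 457 ΔSRR2–18 reads at −122 bp, and was 1.93-fold lower (log2 ratio −0.95, interval −1.10 to −0.80). The region on the other side of the TSS (chr9:91364081-91365554), with its strongest summit at +497 bp in the 5′ UTR, had 512 scaled parent reads and 459 ΔSRR2–18 reads. Its log2 ratio of −0.16 had a counting interval of −0.32 to 0.0038, which includes 0. As a ratio of fold enrichments, 4.15 in the parent and 5.46 in ΔSRR2–18, it was higher in ΔSRR2–18 (log2 ratio 0.40).

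The region in the Zic1 intron (chr9:91361570-91362554) had 760 scaled parent reads and 395 ΔSRR2–18 reads at its strongest summits and was 1.92-fold lower (log2 ratio −0.94, interval −1.11 to −0.78). Its tallest summit was another one in each genotype, as at Zic2 and Zic5. The summits at +3807 and +3604 bp had 1501 and 915 reads in the parent and 324 and 395 in ΔSRR2–18, and their ratio went from 1.64 to 0.82 (ratio of ratios 0.50, interval 0.42 to 0.59). The other regions with several matched summits kept their order, with ratios of 2.07 and 2.09 downstream of Zic1, 1.19 and 1.29 around the Zic1 5′ UTR, and 1.21 and 1.52 in the Zic4 intron, in the parent and ΔSRR2–18, respectively. Their ratios of ratios were 1.01 (interval 0.801 to 1.27), 1.09 (0.921 to 1.28) and 1.26 (1.01 to 1.57). All these intervals cover counting error in pooled lists only.

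The intergenic region downstream of Zic1 (chr9:91355360-91356283 in the parent, chr9:91355409-91356278 in ΔSRR2–18) had the highest fold enrichment of all Zic regions of the parent, at 20.2, and 10.5 in ΔSRR2–18. It had 1722 parent reads, 872 after scaling, and 259 ΔSRR2–18 reads, and was 3.36-fold lower (log2 ratio −1.75, interval −1.94 to −1.56). Its second summit, at +9750 bp, was 3.39-fold lower. The local background here was 1.80-fold lower (42.6 scaled reads to 23.7), so that this region was the most reduced of the 7 pairs in fold enrichment, with a log2 ratio of −0.94. Its strongest summits in the genotypes lie 7 bp apart, and the SOX match in its sequence above begins 66 bp from the parent summit.

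**Figure D3:**
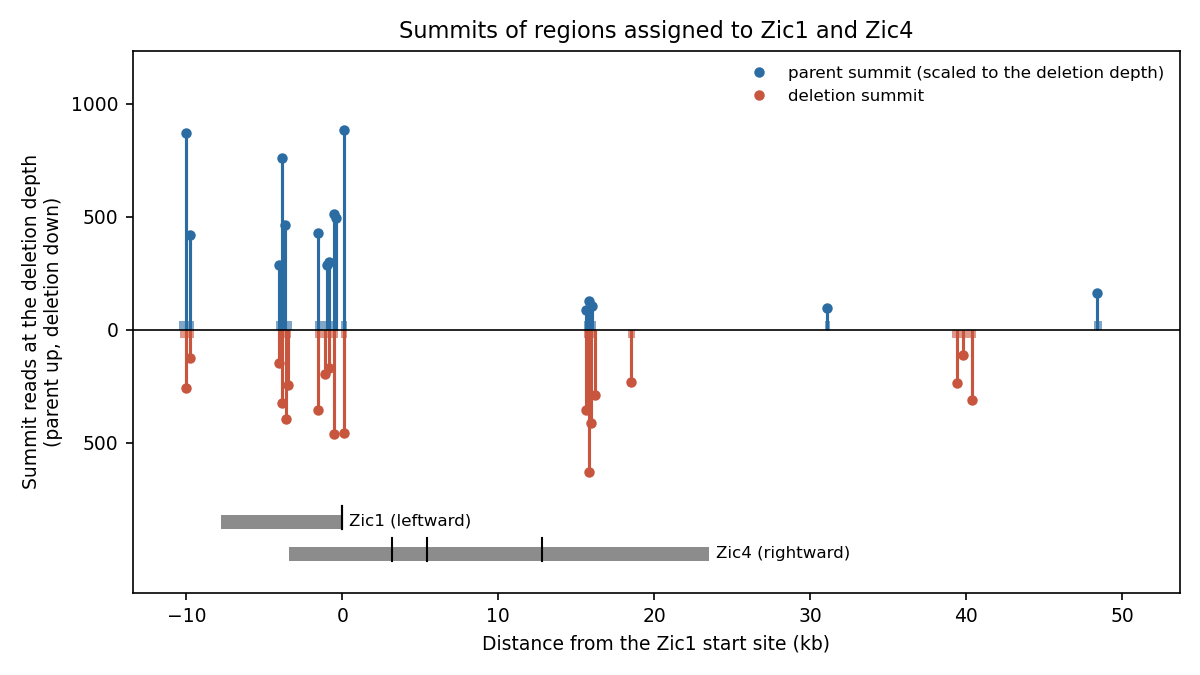
Summits of regions assigned to Zic1 and Zic4, plotted by distance in kb from the Zic1 start site toward Zic4, with parent reads scaled to the ΔSRR2–18 depth drawn upward and ΔSRR2–18 reads drawn downward. Bars and ticks mark regions, genes and basic-set TSSs; the parent summits are tallest around Zic1, up to 882 scaled reads, and the ΔSRR2–18 summits are tallest in Zic4, at 629 reads.

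Zic4, the neighbour of Zic1, had the one overlapping pair of the family that was higher in ΔSRR2–18 in reads. None of its 3 basic-set TSSs had the strongest summit of a region within 1 kb in either list. In the full annotation, the start of another coding transcript of Zic4 (position 91362413) lies inside the region described as the Zic1 intron in both genotypes, 452 and 220 bp from its strongest parent and ΔSRR2–18 summits. The start of a noncoding Zic4 transcript (position 91382410) lies 796 and 801 bp from the strongest summits of the intronic Zic4 region. The intronic region 2972 bp past the TSS at position 91378642 (chr9:91381316-91382096 in the parent, chr9:91381286-91382103 in ΔSRR2–18) had 253 parent reads, 128 after scaling, and 629 ΔSRR2–18 reads. It was 4.91-fold higher in ΔSRR2–18 (log2 ratio 2.30, interval 2.08 to 2.51), or 2.54 from the median of all pairs, and 95.2% of all pairs had a lower ratio. All 3 parent summits of the region had a matched ΔSRR2–18 summit, and the matched summits were 3.90-fold to 4.91-fold higher. The local background was higher with them, from 19.7 scaled reads, the genome-wide floor of the parent list, to 65.4. Fold enrichment was 6.37 in the parent and 9.49 in ΔSRR2–18, and the IDR score was 886 in the parent and 1000 in ΔSRR2–18.

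Of the 7 overlapping pairs, 3 were at least 2-fold lower in ΔSRR2–18 (the Zic2 and Zic5 promoters and the region downstream of Zic1), against 16.5% of all pairs. At promoters, 2 of 4 pairs were at least 2-fold lower, against 14.2% of promoter pairs. The Zic4 intron was the only pair at least 2-fold higher, against 16.0% of all pairs. By fold enrichment none of the 7 pairs was past 2-fold in either direction, against 8.14% of all pairs at least 2-fold lower and 10.5% at least 2-fold higher, and 4 pairs were lower and 3 higher, the Zic5 promoter among the latter. Counted by matched summits, 12 of 21 were at least 2-fold lower, against 17.4% of all matched summits, and 3 were at least 2-fold higher, against 12.1%. Summits of a region share reads and background and are not independent, so these counts describe 7 regions at 2 loci.

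**Figure D4:**
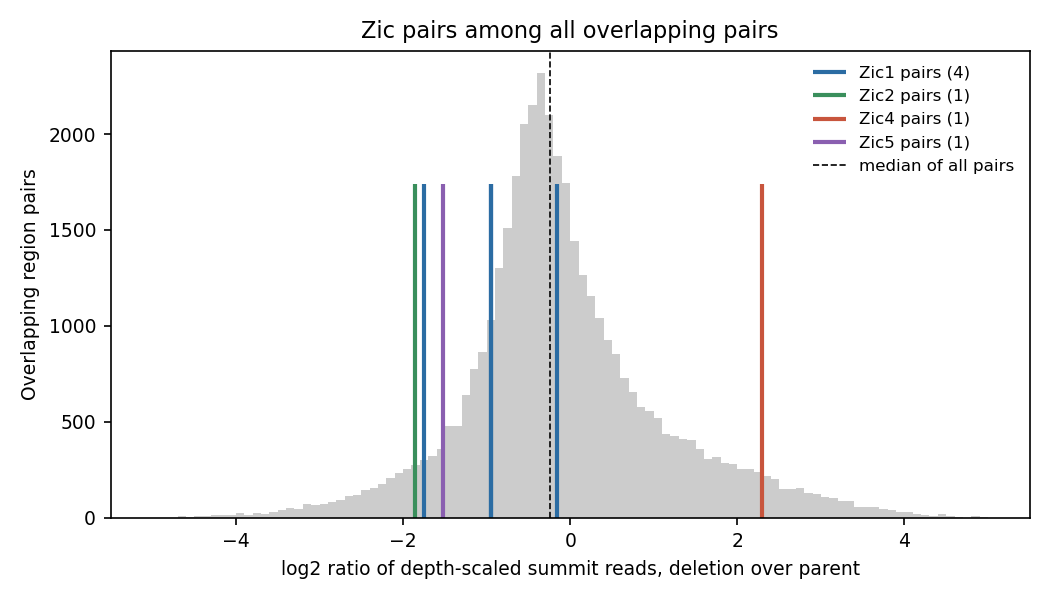
Number of overlapping region pairs (vertical axis) by log2 ratio of depth-scaled summit reads, ΔSRR2–18 over parent (horizontal axis), over all 40114 pairs in grey, with the 7 Zic pairs as coloured lines and the median of all pairs, −0.24, dashed. The Zic2, Zic5 and downstream Zic1 pairs lie between −1.86 and −1.52, and the Zic4 pair at 2.30.

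**Figure D5:**
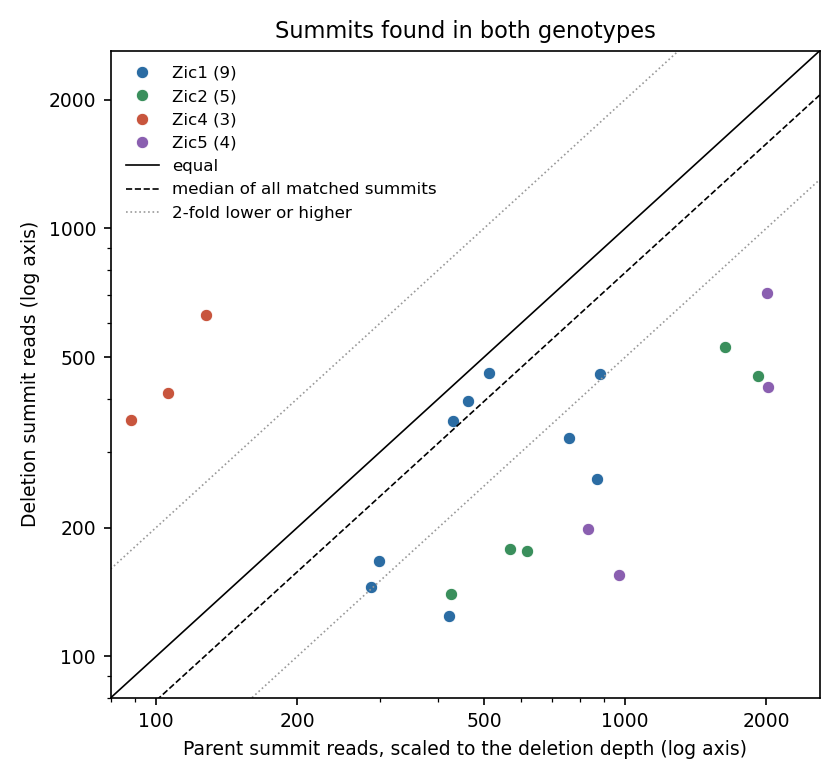
Reads at the 21 Zic summits that have a summit of the other genotype within 100 bp, with parent reads scaled to the ΔSRR2–18 depth on the horizontal log axis and ΔSRR2–18 reads on the vertical log axis, coloured by gene. All 18 summits of Zic1, Zic2 and Zic5 lie below the line of equality and the 3 Zic4 summits above it.

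The regions found in a single list were below the median height of their list. They had at most 309 reads at the ΔSRR2–18 depth, against medians of 346 scaled reads in the parent and 353 in ΔSRR2–18. In the parent these were a region at Zic4 +35563 bp, in an intron of the noncoding gene Gm29478 (chr9:91414009-91414541), with 321 reads, 162 after scaling, and an intergenic region at Zic4 +18220 bp (chr9:91396730-91397101), with 194 reads, 98.2 after scaling, and an IDR score of 747. The latter was absent from the parent's own optimal list. In ΔSRR2–18 the most enriched region of all Zic regions, with a fold enrichment of 12.4 and 309 reads, was also found in that list alone, at Zic4 +27557 bp in an intron of Gm29478 (chr9:91404877-91406467, 1591 bp with 3 summits). A region in the Zic4 coding sequence at +5683 bp (chr9:91384133-91384559) had 229 reads and an IDR score of 732. At the parent depth, these ΔSRR2–18 regions would have had 611 and 452 reads. The parent background was 38.8 reads at the nearest parent summits, 8006 and 2510 bp away, which gives fold enrichments of 15.3 and 11.4. That background leaves out the regions' own reads, so these values can be too high. In ΔSRR2–18 itself the fold enrichments were 12.4 and 4.09. The same calculation for the parent-only regions at +35563 and +18220 bp gave 6.56 and 4.01 over the ΔSRR2–18 background.

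The remaining ΔSRR2–18 region, in the Zic5 intron at +2238 bp (chr14:122463318-122463735), had 221 reads, a fold enrichment of 3.10 and an IDR score of 638. It lies 91 bp from the parent's Zic5 promoter region and 85 bp from that of ΔSRR2–18. At the parent depth its height would have been 437 reads, while the parent background at the nearest summit was 440 reads, a fold enrichment of 0.99. A summit of this height would not have stood above the parent background, so its absence from the parent list does not show a lower signal.

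Some regions close to Zic2 and Zic5 had another gene as their nearest. Within 50 kb of a Zic2 or Zic5 TSS, 3 parent and 4 ΔSRR2–18 regions had another nearest TSS (Gm5089, Gm10837 or Pcca). On the Zic5 side, a region at 14573 bp from the TSS and over the start of Gm5089 (chr14:122450429-122451461), had 893 scaled parent reads, and its ΔSRR2–18 counterpart had 191. Nearer to Zic5, a parent region at 11788 bp (chr14:122453550-122454250) had 607 scaled reads and no ΔSRR2–18 counterpart. On the Zic2 side, the regions at 11213 and 15217 bp had 178 and 124 reads and were found in ΔSRR2–18 alone. At the limit of 50 kb, the outermost assigned region was at 35563 bp, and the next region with Zic4 as the nearest gene was at 59059 bp, in the parent, with 155 scaled reads.

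The regions were scanned for the motif of the ZIC factors themselves and for those of other factors. Within 100 bp of the strongest summit, 2 of 19 regions had a match (10.5%, Wilson interval 2.94% to 31.4%), against 10.4% of all regions. The matches were at the Zic1 5′ UTR summit of the parent and in the parent-only Zic4 region at +35563 bp. A SOX match was present in 3 of 19 regions (15.8%, Wilson interval 5.52% to 37.6%), against 26.9% of all regions, a share inside this interval. Within 1 kb of a TSS it was present in 12.0% of the parent and 10.8% of the ΔSRR2–18 regions. No Zic region had a match within 100 bp for the GLI motif GGGTGGTC, the AP-1 motif TGACTCA, the HOX-PBX motif TGATTNAT, the OTX motif TAATCC, the TCF/LEF motif CTTTGAT or the CTCF core, and these were present in 0.354%, 19.7%, 5.23%, 4.81%, 2.27% and 0.618% of all regions, respectively. Within 1 kb of a TSS, the AP-1 motif was present in only 2.07% of the parent and 5.85% of the ΔSRR2–18 regions. The CCAAT box, added to the search after the sequences had been seen, was present in 8 of 19 regions (42.1%, Wilson interval 23.1% to 63.7%), against 23.8% of all regions. It was present in 30.1% of the parent and 29.9% of the ΔSRR2–18 regions within 1 kb of a TSS, shares that lie inside this interval. The parent Zic5 summit at +126 bp had 4 CCAAT boxes. Regions found in both lists enter these counts once for each genotype.

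The related zinc finger genes Gli1, Gli2, Gli3, Glis1, Glis2 and Glis3 all had a region within 1 kb of a TSS in both lists. Gli proteins carry the response to Hedgehog signals. Together the 6 genes had 36 parent regions, 15 of them in the parent alone (41.7%, against 52.3% of all parent regions), and 46 ΔSRR2–18 regions, 25 of them in ΔSRR2–18 alone (54.3%, against 63.1%). Over their 21 overlapping pairs the median log2 ratio was −0.35, with 3 pairs at least 2-fold lower and 3 at least 2-fold higher, against 16.5% and 16.0% of all pairs.

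Genes that pattern the dorsal neural tube, where Zic genes act, had ratios in both directions. Msx1, Msx2, Pax3, Pax7, Lmx1a, Wnt1, Wnt3a, Olig3, Gdf7 and Bmp6 had 37 parent regions, 15 in the parent alone (40.5%, against 52.3% of all parent regions), and 51 ΔSRR2–18 regions, 29 in ΔSRR2–18 alone (56.9%, against 63.1%). The median log2 ratio over their 22 overlapping pairs was 0.042, with 3 at least 2-fold lower, against 16.5% of all pairs, and 5 at least 2-fold higher, against 16.0%. Of the 10 genes, 6 had a region within 1 kb of a TSS in the parent and 9 in ΔSRR2–18. The promoter pairs at Msx1 and Bmp6 had 293 and 140 scaled parent reads and 1051 and 1095 ΔSRR2–18 reads. Those at Msx2, Lmx1a and Gdf7 had log2 ratios of 2.16, 0.49 and −0.39. The Wnt1 promoter pair had 882 and 401 reads, a log2 ratio of −1.14, and Olig3 had 5 regions in the parent and none in ΔSRR2–18.

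Other genes were compared with the Zic genes by their numbers of overlapping and unmatched regions in each list. Of 21920 other protein-coding genes, 35 had the same 4 counts as Zic1, 130 the same as Zic4, 888 the same as Zic5 and 2117 the same as Zic2. The genes with the same counts and the closest total region width were Rubcn, Rnase4 and Zfp619 for Zic1, Dnajc1, Rbl2 and Gigyf2 for Zic4, and Sp3, Uqcrh and Tsen34 for Zic2.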

How the data were processed

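The authors made ATAC-seq libraries from 3 cultures of parent NSPCs and 3 of ΔSRR2–18 NSPCs. Per the labels, each culture had 30000 cells, 11 to 14 PCR cycles, 50-cycle reads and 50 to 60 M reads. The authors used the ENCODE ATAC-seq pipeline, MACS2 and IDR on mm10, and the labels also name deepTools. They deposited 1 conservative and 1 optimal list per genotype, pooled over cultures, each with an IDR score, a fold enrichment ratio over local background, a −log10 p, a −log10 q (not used here) and a summit offset. The settings of the peak caller were not given in the sources used here. The authors also tested read counts with DiffBind, and neither those counts nor those tests are used here. One allele is castaneus, so its reads may align to mm10 less well, and values here combine the alleles.

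The conservative lists were used. Distinct intervals took the values of their summit of highest fold enrichment and were assigned to protein-coding TSSs of the GENCODE M21 basic annotation (21924 gene symbols). Overlap was at least 1 bp. Reads and local background were solved from fold enrichment and −log10 p under MACS2's Poisson model. At least 99.9993% of the reads were whole within 0.05. These are pileup heights without molecular identifiers, so intervals cover counting error only. Scripts ran in Python 3.11.15 with numpy 2.4.6, pandas 2.3.3, scipy 1.17.1, statsmodels 0.14.6 and pysam 0.24.0, and were tested on simulated data. Motifs and sequences were read from GRCm38.p6, the assembly behind mm10. RefSeq promoter records of GRCm38.p6 matched 3 of the 4 genes and are not printed. All Zic regions are described, so that the naming rule left none out. That rule named every region within 1 kb of a TSS, the 3 most enriched regions and the 3 most enriched unmatched regions per genotype, and the pairs with the highest and lowest ratios. A relative in the gene lists and the genes most like Zic5 are not reported here. The members, gene lists and motifs were chosen with earlier results of these data known. Matched summits, the ratios within regions, the CCAAT box, transcript starts outside the basic set and assignment regardless of the nearest gene were added after the values were seen. Alternatives were the optimal lists, an IDR score of at least 830, merged intervals, a TSS distance of 10 kb, other TSSs, lists of equal length, parent values at the ΔSRR2–18 depth, stricter overlaps, absence from the optimal list, other height scales and a 50 bp motif window.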

Additional observations from a re-analysis of the deposited data

Results flagged for a closer look

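Signal at the Zic genes was also present in the optimal lists, which the comparisons did not use, at places with no conservative region of the same genotype. In the parent this was an intergenic region 5184 bp past the Zic2 TSS (chr14:122480403-122480780), with 361 reads, 183 after scaling, a fold enrichment of 2.42 and an IDR score of 722. In ΔSRR2–18 it was an intergenic region 20301 bp past a Zic4 TSS (chr9:91398809-91399065), with 84 reads, a fold enrichment of 4.11 and an IDR score of 607. Neither overlapped a conservative region of the other genotype.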

How the results depend on the processing

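Of 95 recomputed values for the counts, shares, median ratio and ZIC motif share, 81 stayed within 1.5 times the count, within the Wilson interval of the share or within the counting interval of the median ratio, and 14 did not. With an IDR score of at least 830, 1 parent-only and 1 ΔSRR2–18-only region remained. Within 10 kb of a TSS, 0 regions were parent-only and 100% of the parent regions overlapped. With lists of equal length by fold enrichment, 4 ΔSRR2–18 regions were left, 6 parent regions were parent-only, 1 was ΔSRR2–18-only, 33.3% of parent regions overlapped and the median log2 ratio was −1.52; by −log10 p, 1 region was ΔSRR2–18-only. With parent values at the ΔSRR2–18 depth and a −log10 p of at least 50, 1 region was parent-only. Counting regions within 50 kb whichever gene was nearest gave 5 ΔSRR2–18-only regions. The median log2 ratio was −0.95, −1.51 over matched summits and −0.32 as a ratio of fold enrichments. In fold enrichment the Zic5 promoter pair was at 0.089 in place of −1.52, the Zic1 pair at +497 bp at 0.40 in place of −0.16, and no pair was past 2-fold. The local backgrounds given with the pairs move with this change; no further cause was tested. No paired analysis was possible because the lists pool the cultures, and no replicate could be left out for the same reason. For that reason no difference at a region could be weighed against variation between cultures.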

Other observations

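Over all regions, the ZIC motif was present within 100 bp of the strongest summit in 12.1% of parent regions (Wilson interval 11.9% to 12.3%) and in 9.04% of ΔSRR2–18 regions (8.87% to 9.21%). The share was 12.2% in parent-only regions, 7.65% in ΔSRR2–18-only regions, and 12.0% and 11.4% in the overlapping regions of the parent and ΔSRR2–18 lists. Windows 500 bp away had the motif in 5.61% and 4.96% of parent and ΔSRR2–18 regions. Median GC content over all regions was 49.5% in the parent and 46.6% in ΔSRR2–18, and the part of GC content in the motif shares was not tested.

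Beyond the distance limit, Zic4 was the nearest protein-coding gene of further regions inside Gm29478. A parent region at 77838 bp from the TSS (chr9:91456235-91457224) had 491 scaled reads and a fold enrichment of 17.7, and a ΔSRR2–18 region at 98187 bp (chr9:91476644-91477097) had 211 reads and a fold enrichment of 10.3. Neither had a counterpart in the other list.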
